A study of Homo sapiens with 13 samples.

Results

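SRSF2 binding was compared between wild-type (WT) protein and the P95H mutant in HEL cells, a human erythroleukemia line. The comparison rests on the authors' differential interactome table, in which every entry was taken and each position, defined by chromosome, start, end and strand, was counted once. Of 8324 entries, 224 repeated a position, which left 8100 windows of about 20 bases assigned to 2384 genes. All entries of the series' only binding table were therefore used, from 8 of its 13 samples. HITS-CLIP was made from 4 WT and 4 P95H samples of cells stably carrying SRSF2 under doxycycline, given 1 µg/ml for 36 hours. RNA-seq, made after rRNA depletion, followed 48 hours of doxycycline in 2 samples per genotype, and 1 more P95H sample was labelled uninduced. The protein was recovered through a Flag tag, so binding by the cells' own untagged SRSF2 was not measured. The labels call the samples biological replicates and do not say that they were separate cultures, so the errors below measure only the spread between these samples.

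SRSF2 is an SR protein. It binds exonic splicing enhancers through an RNA recognition motif and helps to recruit the spliceosome to nearby splice sites. Its RNA recognition motif contacts the short sequences CCNG and GGNG, and the P95H substitution, recurrent in myelodysplastic syndromes, lies at the edge of that domain and has been reported to shift preference towards CCNG. In HITS-CLIP, ultraviolet light crosslinks a protein to the RNA it touches, and the RNA fragments left after partial digestion are sequenced.

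The sequences of windows that lay inside RefSeq promoter entries (build GRCh38.p14, 250 bases before to 50 after a gene's start) are shown first, since these were the windows whose bases could be read. They were picked after their values were seen, to show both directions. The printed gained windows hold no CCNG, although 10 of the 51 gained windows with sequence held it. The examples therefore do not stand for the motif shares, which are given below. In each line below CCNG and GGNG matches on the transcript strand are in capitals, and the other bases are in lower case. The bases run from 1 past the listed start to the listed end, because the table does not say whether its starts count from 0 or 1. The lost examples encode a splicing factor, a decay factor, a chaperone and an adaptor protein, in this order:
CCDC12 lost: gGGAGaaaaCCGGGCGcaag
UPF3B lost: gccgcttcagcGGGGGacgt
HSP90AB1 lost: tctctcgagtcactCCGGCG
YWHAE lost: ttttgctgCCCGGacgcgga
The gained examples encode the ribosomal scaffold RACK1 (listed as GNB2L1), an engulfment factor, an exocyst subunit, a spliceosome subunit and a copy of HERC2:
GNB2L1 gained: ctgcaaGGCGGCGgcaGGAG
ELMO1 gained: gctGGGGCGagcgGGAGcgg
EXOC7 gained: catccgctcgacGGCGGGAG
SF3B1 gained: ttcgagtggacaaaatGGCG
HERC2P9 gained: gagatgggctctgtggtctg
EWSR1, an RNA-binding protein gene, carried both directions within one stretch of sequence, a lost window and a gained window that starts 12 bases further on:
EWSR1 lost: GGCGcctagagggaaagcga
EWSR1 gained: gaaagcgagagGGAGacgga

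At CCDC12 (chr3:46976636-46976656, minus strand) the mean fell from 6.99 ± 5.06 CPM in WT to 0.51 ± 0.27 CPM in P95H (authors' mean ± SEM of 4 libraries). CPM are counts scaled to a common library total, which the table does not state. At UPF3B (chrX:119852932-119852952, minus strand) the means were 10.6 ± 4.08 CPM in WT and 4.92 ± 2.97 CPM in P95H. ELMO1 (chr7:37448827-37448847, minus strand) was listed at 0 in WT and at 3.21 ± 3.04 CPM in P95H. That SEM is nearly as large as its mean, which is the case when 1 library holds nearly all of the signal. SF3B1, the spliceosome subunit most often mutated in myelodysplasia, had 0.66 ± 0.64 CPM in WT and 2.08 ± 0.78 CPM in P95H (chr2:197434993-197435013, minus strand). The gained EWSR1 window (chr22:29268286-29268306, plus strand) had 0.24 ± 0.24 CPM in WT and 2.57 ± 1.94 CPM in P95H. The lost EWSR1 window (chr22:29268274-29268294, plus strand) had 1.00 ± 0.74 CPM in WT and 0.11 ± 0.08 CPM in P95H.

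Such sequence was at hand for 157 windows, 51 gained (25 merged regions) and 106 lost (59 merged regions). CCNG stood in 10 of the 51 gained windows (19.6%) and in 43 of the 106 lost windows (40.6%). GGNG stood in 26 gained windows (51.0%) and in 51 lost windows (48.1%). Of all 20-base stretches in the first 50 transcribed bases of 35116 RefSeq entries, 38.2% held CCNG and 39.5% held GGNG. In the 250 bases before the start these shares were 36.9% and 33.3%. The windows could lie in either part, and in entries of another gene or strand, so neither share is a matched reference. With 1 window per merged region, CCNG was in 9 of 25 gained regions (36%) and in 24 of 59 lost regions (40.7%), so the gained share rose with merging. HERC2P9 alone gave 9 overlapping gained windows, none of which held CCNG. Merged regions gave GGNG shares of 48% gained and 50.8% lost. Of these windows, 2 gained and 22 lost ones overlapped a table window of the opposite strand by at least 15 bases, so their motif depends on a strand that the table does not settle. Without them CCNG was in 16.3% of 49 gained and 33.3% of 84 lost windows, and GGNG in 51.0% and 52.4%. These counts are descriptions of a small set at gene starts, each motif was searched on the transcript strand, and CCNG and GGNG may overlap in a sequence such as CCGGCG.

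Loss of signal outweighed gain in this table. P95H was lower than WT in 6297 windows (77.7%) and higher in 1803 (22.3%). The gained windows had a median of 0.26 CPM in WT and 1.81 CPM in P95H, and the lost windows had 4.89 CPM in WT and 1.13 CPM in P95H. The higher of the 2 genotypes was thus higher at lost than at gained windows. Summed over windows, the P95H minus WT difference was 6551 CPM for gained and -113325 CPM for lost windows, or 94.5% lost. Neighbouring windows overlap and count the same reads repeatedly. Merged where they shared at least 1 base, they formed 1272 gained and 2496 lost regions, and taking only the strongest window of each region gave sums of 2508 and -10670 CPM. The median change on the log2 scale in the authors' deposited table was similar in size for both directions, 2.04 for gained and 1.96 for lost windows. All windows had passed the authors' threshold of at least 2-fold and an adjusted p of at most 0.05, so the table holds no window that was tested without passing, and these shares describe the passing windows only. A gene without a window may therefore still be bound alike by both proteins.

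The spread between libraries was wide. In lost windows with at least 1 CPM, the WT SEM had a median of 0.734 of the mean, and in gained windows the P95H SEM had a median of 0.717 of the mean. A SEM equal to the mean is reached when all signal lies in 1 of 4 libraries. At the median ratio the strongest library must hold at least 65.4% of the WT signal in lost windows and at least 63.5% of the P95H signal in gained windows. It must hold at least 80% in 1829 lost windows (31.1%) and in 399 gained windows (29.3%). The P95H minus WT difference was larger than both SEM added together in 2497 of 8100 windows (30.8%), in 1760 lost (27.9%) and 737 gained windows (40.9%). The table gives means per genotype and no value for a single library, so no test across samples was run on it, and which library carried the signal was not tested.

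**Figure D1:**
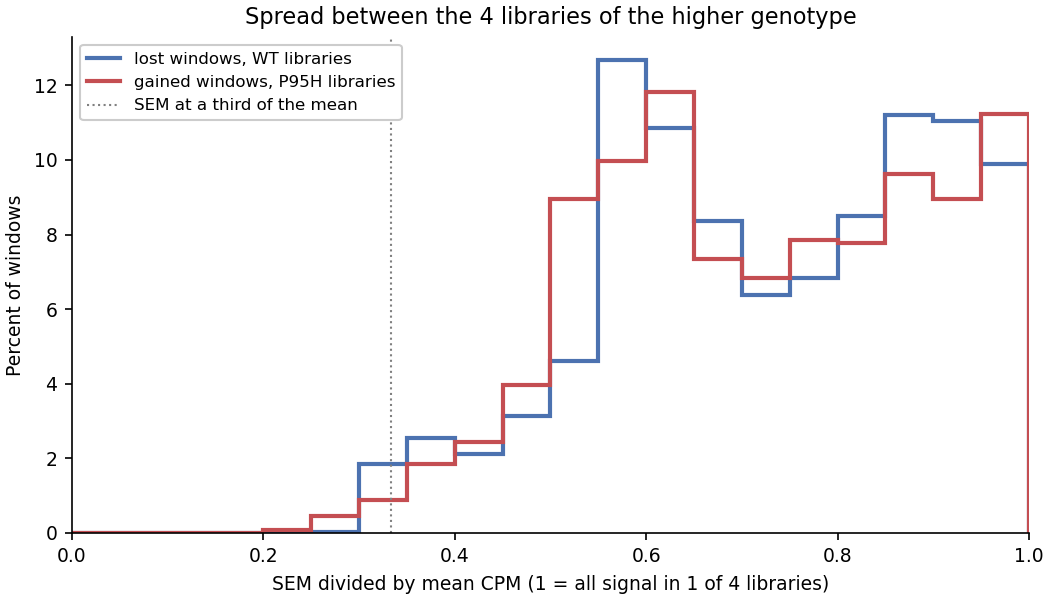
SEM divided by the mean CPM (x axis, no unit) against the percent of windows (y axis), for windows with at least 1 CPM in the genotype with the higher mean. Few windows lie left of the dotted line at a ratio of 1/3, 37 lost and 11 gained, and the medians are 0.734 and 0.717.

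Signal was concentrated in few genes. Of 2384 genes, 1385 had lost windows only, 744 gained windows only and 255 both. Net signal was higher in P95H in 836 genes (35.1%) and lower in 1548. The 12 genes with the largest loss held 68.1% of the lost signal and the 12 with the largest gain held 50.4% of the gained signal. Sequence copies with near-equal values, such as HMGB1 and HMGB1P5 or HERC2 and HERC2P3, count as separate genes here. Their signal therefore enters these shares and totals repeatedly. A pair of error estimates is given for a gene's summed difference, since its windows share libraries: the root of the summed squares, which treats windows as independent, and the plain sum of all SEM, which lets them move together. With the first, 1703 genes (71.4%) had a net difference larger than the error, and with the second 759 genes (31.8%).

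The largest losses lay on mRNAs of acidic nuclear proteins. NCL encodes nucleolin, an abundant nucleolar RNA-binding protein, and accounted for 35.4% of all lost signal. Its 190 windows, all lost, summed to 58119 CPM in WT and 17968 CPM in P95H, a difference of -40151 CPM. The error of that difference was 5589 CPM with windows independent and 68330 CPM with windows moving together, so the loss exceeded only the first. A single stretch of 174 bases (chr2:231460668-231460842, minus strand, within NCL) carried 128 windows and 97.3% of the gene's loss. At its strongest window (chr2:231460698-231460718) the means were 852 ± 784 CPM in WT and 272 ± 243 CPM in P95H. The SEM there require that 1 WT library held at least 88.6% of the WT signal and 1 P95H library at least 84.8% of the P95H signal. A second stretch of NCL, with 23 windows (chr2:231463213-231463300), fell from 946 to 325 CPM summed.

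PTMA, which encodes prothymosin alpha, a histone chaperone, had 101 lost and 2 gained windows and a loss of -8146 CPM. Its strongest window (chr2:231711922-231711943, plus strand) had 242 ± 221 CPM in WT and 28.4 ± 22.1 CPM in P95H. Loss at PTMA fell in separate stretches, with 68.9% of it in 47 windows at chr2:231711884-231711992 and 28.2% in 35 windows at chr2:231711339-231711394. The gained windows of PTMA lay further on, with 1.84 ± 0.74 CPM in WT and 4.58 ± 3.33 CPM in P95H at the stronger. ANP32B, another acidic histone chaperone, had 108 lost windows and a loss of -5902 CPM, and its strongest window (chr9:98005139-98005159, plus strand) went from 156 ± 136 CPM to 43.1 ± 33.3 CPM. HMGB2, a DNA-bending chromatin protein, had 89 lost windows and a loss of -5271 CPM, 93.0% of it in 48 windows at chr4:173332099-173332208. Its strongest window had 204 ± 176 CPM in WT and 50.3 ± 41.7 CPM in P95H. In these 4 genes the P95H mean at the strongest window lay within 1 SEM of the WT mean.

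The other genes of the leading 12 lost were chaperone mRNAs and sequence copies. HSP90AA1 and HSP90AB1, the cytosolic HSP90 chaperones, had lost sums of -2538 and -2450 CPM, and at their strongest windows WT stood at 120 ± 94.2 CPM and 253 ± 191 CPM against 35.7 ± 23.8 CPM and 124 ± 84.2 CPM in P95H. HMGB1, the relative of HMGB2, went from 1906 to 287 CPM in sum. PTMAP5 and HMGB1P5 are processed pseudogenes of PTMA and HMGB1, with summed values of 6571 and 1854 CPM in WT and 2274 and 258 CPM in P95H. RP11-673C5.1, RP11-529H20.3 and RP11-267J23.4, all listed as processed pseudogenes, had lost sums of -1613, -2293 and -1336 CPM. At their strongest windows HMGB1, HMGB1P5 and RP11-673C5.1 had 96.4, 96.4 and 96.2 CPM in WT and 13.3 CPM each in P95H, so these copies cannot be told apart in the table. Likewise, 1 stretch each of PTMA, PTMAP5 and RP11-529H20.3 had near-equal sums, so these cannot be told apart there either. The sums were 4125, 4167 and 4004 CPM in WT and 1824, 1875 and 1759 CPM in P95H. RP11-267J23.4 shared a window of equal values with PTMAP4. None of the 12 genes had a loss larger than the plain sum of its SEM.

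**Figure D2:**
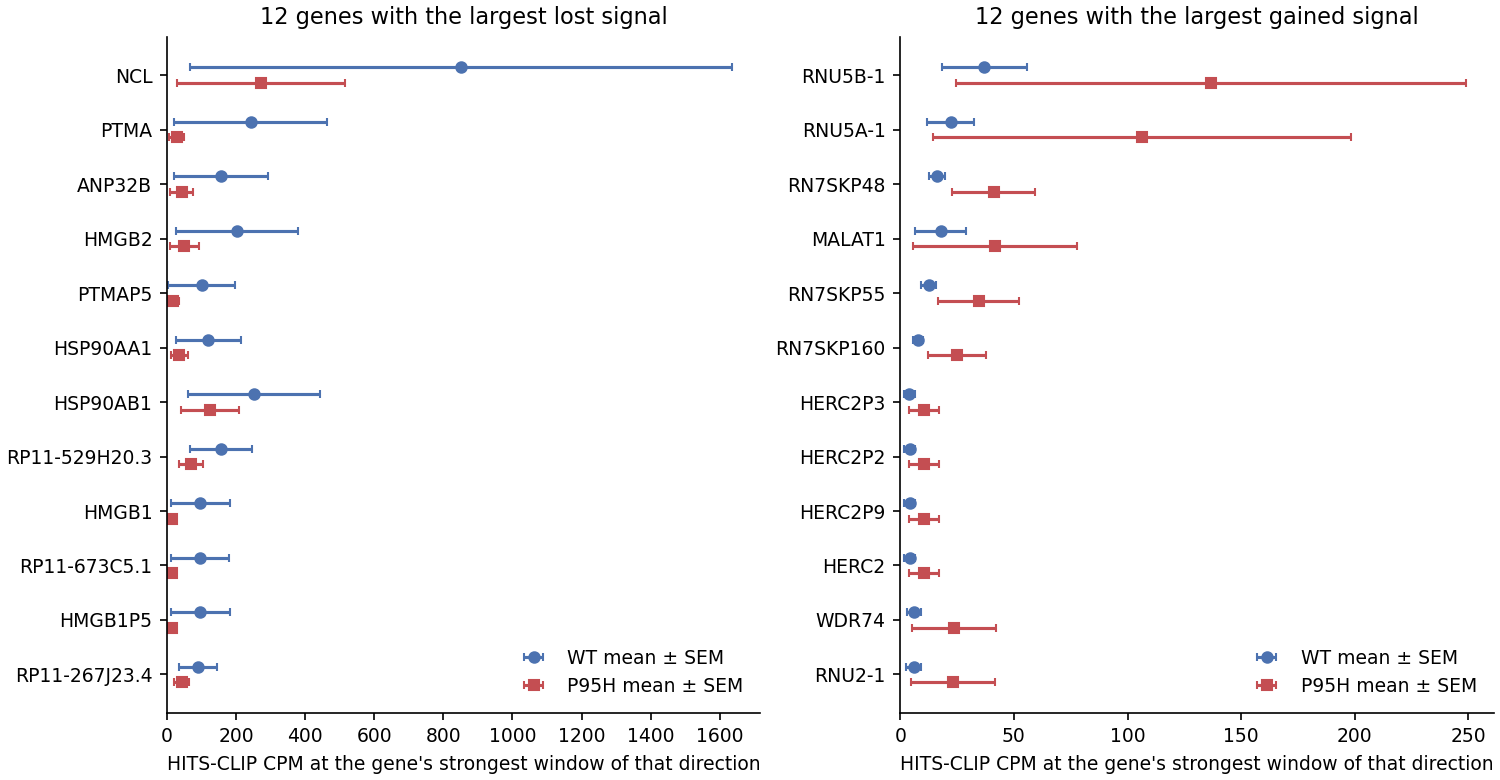
Mean CPM ± SEM (x axis, authors' values, 4 libraries per genotype) at the strongest window of the stated direction, for the 12 genes with the largest lost signal (left) and the largest gained signal (right). NCL stands at 852 CPM in WT and 272 CPM in P95H, and RNU5B-1 at 37 CPM in WT and 137 CPM in P95H, and most intervals of the 2 genotypes overlap.

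The largest gains lay on small nuclear RNAs. RNU5B-1 and RNU5A-1 encode U5, the snRNA of the tri-snRNP that holds the exons during splicing. RNU5B-1 had 18 windows, all gained, over 69 bases (chr15:65304698-65304767, plus strand), and went from 522 to 1865 CPM in sum, 20.5% of all gained signal. At its strongest window the mean was 37 ± 18.6 CPM in WT and 137 ± 112 CPM in P95H. RNU5A-1 had 14 gained windows (chr15:65296072-65296140, plus strand) and went from 245 to 1179 CPM in sum, with 22.3 ± 10.3 CPM in WT and 106 ± 92.0 CPM in P95H at the strongest. There 1 P95H library held at least 81.3% of the signal. RNU2-1, a U2 snRNA gene, rose from 5.91 ± 3.19 to 23.4 ± 18.5 CPM at its strongest window, and WDR74, whose gained windows had nearly the same values, from 5.89 ± 3.12 to 23.6 ± 18.5 CPM. All 47 windows on snRNA transcripts were gained, from 11 genes.

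Copies of 7SK, the noncoding RNA that holds the elongation factor P-TEFb inactive, were gained with a narrower spread. All 70 windows on 27 such genes were gained, and together they went from 503 to 1304 CPM, 12.2% of all gained signal. The P95H over WT ratio of summed CPM ran from 2.08 to 4.56 over the 27 genes. RN7SKP48, the strongest, had 16.2 ± 3.39 CPM in WT and 41.2 ± 18.3 CPM in P95H at its strongest window, where the SEM only require 1 P95H library to hold 39.8% of the signal. RN7SKP55 had 12.6 ± 3.33 and 34.5 ± 17.9 CPM, and RN7SKP160 had 7.82 ± 2.10 and 24.9 ± 12.7 CPM. These 3 copies were the members of the leading 12 gained whose summed gain exceeded the plain sum of SEM. The gains were 235, 152 and 63.8 CPM against errors of 209, 151 and 56.4 CPM. The functional gene RN7SK had no window in the table, and since the copies resemble it, reads of 7SK and of its copies cannot be told apart here. The 5 U1 and 3 Y RNA genes with windows were also all gained, and 8 windows on SNORD and SNORA genes were gained against 26 lost.

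HERC2, a ubiquitin ligase gene, and its copies HERC2P2, HERC2P3 and HERC2P9 completed the leading 12 gained with MALAT1. Their gained windows summed to 55.2, 59.3, 59.5 and 59.3 CPM. Each had a strongest gained window at 10.3 ± 6.62 CPM in P95H, against 4.07 ± 2.35 CPM in WT at HERC2 and 4.06 ± 2.34 CPM at HERC2P3. HERC2P2 and HERC2P9 also carried 6 lost windows each, led by 10.1 ± 6.88 CPM in WT and 3.14 ± 2.55 CPM in P95H at HERC2P2.

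Windows with the same values at different positions were found in sets of gene copies and in sets of other genes. Of 7249 windows with at least 1 CPM, 222 (3.06%) had the same means and SEM, to the 2 decimals listed, as a window over 100 bases away or on another chromosome. The set with most positions held SMG1, a kinase of nonsense-mediated decay, and 7 of its copies, each at 0.08 ± 0.03 CPM in WT and 1.56 ± 1.29 CPM in P95H. Other sets joined genes not named as copies of each other, such as C17orf80, RBM34 and VPS26A, or POLD2 and TTLL12. Pseudogene transcripts carried 1023 windows, 879 of them lost, and 15.7% of the lost signal against 5.35% of the gained signal. Of 165 pseudogenes whose parent gene by symbol also had windows, 154 had a net change of the parent's sign. Over all genes with windows, 1548 of 2384 had a net loss, so a shared sign is common. Some copies also held the parent's own value, such as CHCHD2P6 and CHCHD2 at -1.14 CPM each. The count is therefore not a separate result about pseudogenes. By family, PTMA and its copies (8 genes) held 12.6% of the lost signal, HMGB1 and its copies (15 genes) 5.71%, the HSP90 genes (9) 5.50% and NPM1 and its copies (21 genes) 1.94%, with a net loss in every gene of each family.

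Windows on opposite strands were also alike. In 460 pairs, 2 windows on opposite strands overlapped by at least 15 bases, over 60 pairs of genes and 314 windows (3.88%). All 460 pairs had the same direction, and in 343 both means were within 10% of each other. PTMAP4 and LINC00987 were such a pair of genes, with lost sums of -1165 and -954 CPM. At these positions the table does not tell which strand was bound.

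**Figure D3:**
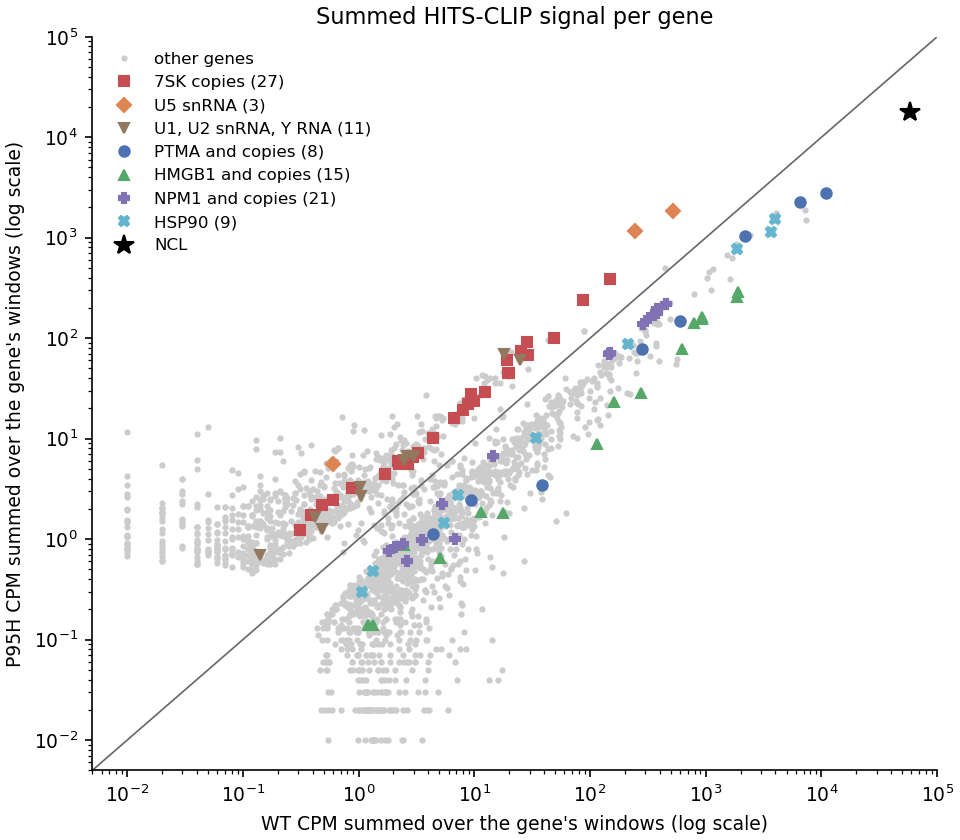
CPM summed over each gene's windows in WT (x axis, log scale) and P95H (y axis, log scale) for the 2286 genes above 0 in both, 1 point per gene, with the line of equal signal. The 7SK, U5, U1, U2 and Y RNA genes lie above the line, and NCL and the PTMA, HMGB1, NPM1 and HSP90 genes below it.

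MALAT1, a long nuclear noncoding RNA of nuclear speckles, changed in both directions along its length. It carried 30 gained windows (233 CPM) and 21 lost windows (-183 CPM) for a net of 50.5 CPM with an error of 106 CPM with windows independent. Without windows whose SEM require 1 library to hold at least 80% of the signal, the net was -121 CPM. The directions were ordered by position (chromosome 11, plus strand). From 1527 to 2777 bases after the gene's start, all 20 windows were lost, with 262 CPM in WT and 102 CPM in P95H in sum. From 2862 to 7540 bases, all 28 windows were gained, with 134 CPM in WT and 350 CPM in P95H. At 8106 bases 1 window was lost, followed by 2 gained.

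The spread differed between the stretches of MALAT1. In the first, the WT SEM had a median of 0.376 of the mean, and 11 of 20 windows had a difference larger than both SEM added. The strongest loss there, at 1916 bases (chr11:65499668-65499688), was from 26.8 ± 9.95 CPM in WT to 8.94 ± 4.36 CPM in P95H. In the gained stretch the P95H SEM had a median of 0.864 of the mean, and 5 of 28 windows passed that mark. The strongest gain, at 3136 bases (chr11:65500888-65500908), was from 17.7 ± 11.2 CPM to 41.6 ± 36.0 CPM. MALAT1 RNA stood at 1185 and 1906 CPM in the WT and 1344 and 2304 CPM in the P95H RNA-seq libraries, so the genotypes overlapped. The boundary between the stretches was chosen after the values were seen.

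**Figure D4:**
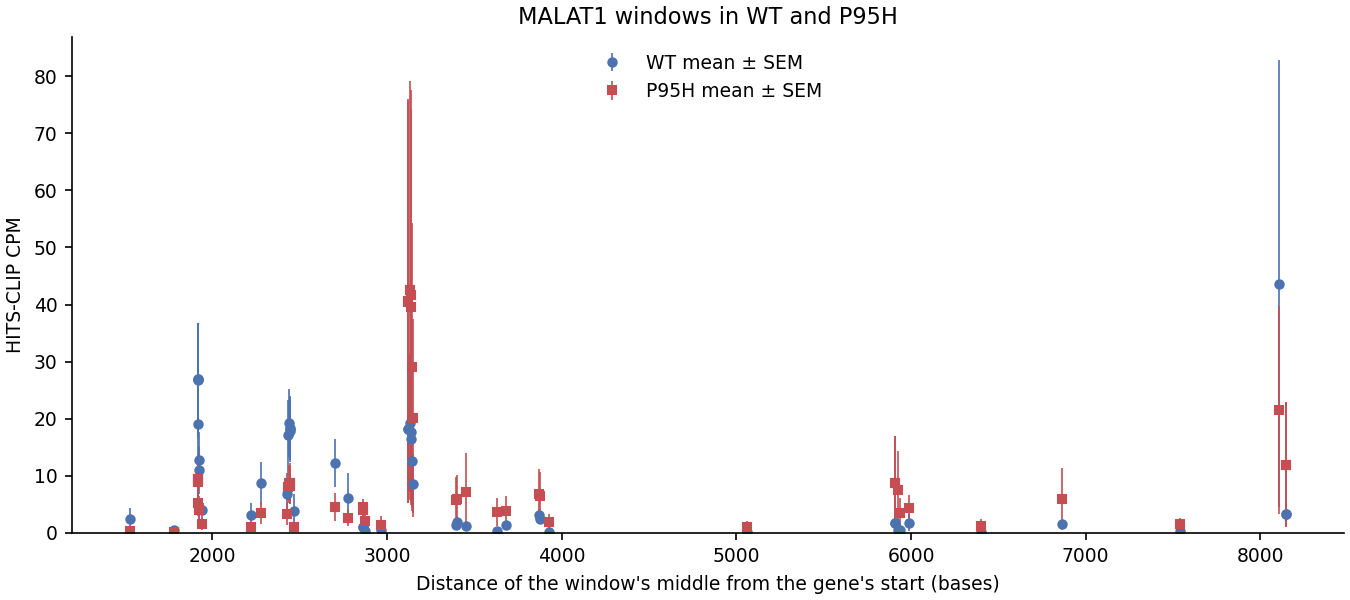
Mean CPM ± SEM of each MALAT1 window in WT and P95H (y axis) against the distance of the window's middle from the gene's start in bases (x axis). WT is higher in all 20 windows from 1527 to 2777 bases, and P95H is higher in all 28 from 2862 to 7540 bases.

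Other genes with windows in both directions had smaller sums. NPM1, the nucleolar chaperone mutated in acute myeloid leukaemia, gained 11.3 CPM in 4 windows and had a lost sum of -195 CPM in 7. Its gained windows lay 797 to 824 bases after the gene's start, from 0.19 ± 0.09 CPM in WT to 2.96 ± 2.41 CPM in P95H at the first, and its lost region 5596 bases after it, from 54.3 ± 31.8 to 26.2 ± 9.89 CPM. GOLGA8A, one of a family of repeated golgin genes, had a gained sum of 9.70 CPM and a lost sum of -10.3 CPM. HERC2P2 and HERC2P9, described above, completed the 5 genes with the largest smaller side.

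Splicing regulators mostly had a net loss, as did most genes with windows, of which 35.1% had a net gain. Of all genes tested by RNA-seq, 9.69% had a window. Of 16 SR protein genes, 10 had windows, 3 with net gain and 7 with net loss, near the share over all genes with windows. SRSF4 went from 26 to 8.45 CPM in 4 lost windows, SRSF10 from 12.2 to 3.74 CPM over 3 lost and 2 gained, SRSF11 from 5.88 to 1.99 CPM and SRRM2 from 15.5 to 12.4 CPM. The single window listed for SRSF2 had 4.66 CPM in WT and 1.93 CPM in P95H. It overlapped a window of MFSD11 on the other strand, at 4.61 and 2.04 CPM, so which gene's RNA was bound cannot be told apart. SRSF10 was the member of these 5 whose net difference exceeded the plain sum of SEM (-8.46 against 6.65 CPM). Of 37 hnRNPs and other splicing regulators, 23 had windows, 19 with net loss. HNRNPM, with 6 of its 29 windows overlapped by windows of the other strand, led with 495 CPM in WT and 154 CPM in P95H, followed by RBM25 (240 and 72.5 CPM), HNRNPH3 (275 and 126 CPM) and HNRNPA1 (94.2 and 39.4 CPM).

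Core spliceosome genes followed the same direction. Of 41, 21 had windows, 17 of them with net loss. SNRPD1, a core Sm protein gene, went from 1156 to 484 CPM, SF3A3, a U2 snRNP subunit, from 493 to 222 CPM, PRPF6, a tri-snRNP protein, from 83.5 to 28.4 CPM and LUC7L3 from 61.7 to 31 CPM. Of 9 CLK, SRPK and related kinases, enzymes that phosphorylate SR proteins, PRPF4B alone had windows (34.0 and 17.3 CPM). PRPF4B is itself neither a CLK nor an SRPK. Among 20 nonsense-mediated decay and exon junction genes, 10 had windows, 7 with net loss and 3 with net gain, near the share over all genes with windows. ACIN1 went from 222 to 27.7 CPM, PNN from 116 to 32.4 CPM, UPF3A, which shares windows of equal values with its copies, from 84.5 to 34 CPM and UPF3B from 52.3 to 21.5 CPM. Net losses in these lists were within the plain sum of SEM for each gene given here except SRSF10.

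Acidic chromatin and histone chaperone genes were the list with the highest share of members with windows, 19 of 24. All 19 had a net loss, -63834 CPM in lost windows in sum. The list was chosen with the leading genes known, so its direction is not independent evidence. Beside the lists of this paragraph, 9.69% of all genes tested by RNA-seq had a window, and 35.1% of all genes with windows had a net gain. Of 26 heat shock and chaperone genes, 15 had windows and 13 a net loss, with HSP90B1 going from 1861 to 778 CPM and CALR, calreticulin, from 299 to 118 CPM. Of 26 translation factors 18 had windows, 11 with net loss and 7 with net gain. EIF5B, which joins the ribosomal subunits, went from 1114 to 304 CPM and EIF3A from 799 to 274 CPM. EIF3C, which shares windows of equal values with EIF3CL, went from 39.3 to 13.2 CPM, while EEF1A1, the main elongation factor, went from 15 to 36.2 CPM. Cell cycle and replication genes were split evenly, with 7 net gains and 7 net losses among the 14 of 25 with windows. MCM3, a replicative helicase subunit, went from 305 to 109 CPM and CDK2 from 13.3 to 3.86 CPM, the latter past the plain sum of SEM. In sum MKI67 went from 4.19 to 9.59 CPM and TUBA1B from 5.41 to 10.7 CPM. The largest single difference of TUBA1B was nonetheless a loss (chr12:49127994-49128014), with a log2 change of -1.09 in the authors' comparison. All 4 CDK2 windows and 4 of 5 TUBA1B windows overlapped windows of the other strand, so the bound RNA is not settled there.

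Ribosomal protein genes were also divided. Of 78, 39 had windows, 18 with net gain and 21 with net loss, against 35.1% net gain over all genes with windows. RPL4 went from 29.2 to 49.3 CPM over 5 gained and 3 lost windows, RPS6 from 43.2 to 26.4 CPM over 2 gained and 5 lost, and RPL3 from 76.5 to 27.2 CPM over 8 lost.

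Of 25 erythroid genes, 6 had windows (24%, against 9.69% of all genes tested by RNA-seq), 5 with net gain and 1 with net loss. Over all genes with windows 35.1% had a net gain. The 9.69% is not matched by RNA level, since genes with windows had a median of 70.1 CPM and all tested genes 4.21 CPM. Even the lowest list share, for CLK, SRPK and related kinases, was 11.1%. SLC25A37, the mitochondrial iron importer mitoferrin, went from 1.11 to 12.1 CPM in 5 gained windows with an error of 12 CPM by the plain sum of SEM and EPB41 from 0.16 to 1.25 CPM, while ANK1 went from 1.81 to 0.42 CPM. Of 20 megakaryocyte and platelet genes, 5 had windows (25%). ITGA2B, the platelet integrin alpha chain, went from 2.03 to 13.1 CPM in 4 gained windows, PLEK from 1.38 to 3.38 CPM, TLN1 from 26.8 to 11.6 CPM and FERMT3 from 5.23 to 1.36 CPM. Of 27 haematopoietic and myelodysplasia genes, 9 had windows (33.3%), 4 with net gain. GATA1 and GATA2, transcription factors of the erythroid and progenitor states, had gained windows only, from 1.86 to 11.1 CPM and from 3.43 to 14 CPM, and only GATA1 of the pair passed the plain sum of SEM (9.23 against 8.88 CPM). SMC1A, a cohesin subunit, had 26 lost windows and went from 148 to 29.8 CPM, with a net of -118 CPM against a plain sum of SEM of 120 CPM.

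Of 20 genes reported as mis-spliced with mutant SRSF2, 6 had windows, 3 with net gain and 3 with net loss. For the lists of this paragraph, 9.69% of all genes tested by RNA-seq had a window. Of all genes with windows 35.1% had a net gain, and 6 genes are too few to set this split apart from that share. HNRNPA2B1 went from 75.8 to 23.6 CPM, CDK5RAP2 from 18.8 to 4.76 CPM and EIF4G1 from 1.39 to 0.44 CPM, while INTS3, an Integrator subunit, was at 0.01 CPM in WT and 4.22 CPM in P95H. EZH2, whose altered splicing with the mutant is the best known, had no window. Windows were found on 7 of 18 abundant noncoding RNAs. GAS5 went from 27.4 to 11.1 CPM and NEAT1, the paraspeckle scaffold, from 2.51 to 7.18 CPM.

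Genes whose net difference exceeded the plain sum of SEM were described as a set of their own once their values were known. Among the 346 genes with at least 20 CPM in a genotype, 49 passed, 43 with loss and 6 with gain. The genes named here were picked from the 43 by hand, and no list was tested. SLU7, a second-step splicing factor, went from 108 to 19.6 CPM, SYF2 from 55.5 to 11.5 CPM, DHX38, a spliceosomal helicase, from 45.7 to 9.97 CPM, SART3, a U4/U6 recycling factor, from 43.3 to 7.84 CPM, and CCDC12 from 27.1 to 2.05 CPM. TAF15 went from 83.7 to 21 CPM, PAF1, an elongation complex subunit, from 43.8 to 4.32 CPM, and CTCF, the chromatin insulator protein, from 26.9 to 0.60 CPM. METAP2, a methionine aminopeptidase, was the largest, from 793 to 136 CPM in 51 lost windows, with a net of -657 CPM against 585 CPM. SET, a histone chaperone, went from 116 to 15.8 CPM. Its copy SETP14 went from 115 to 15.3 CPM, so SET and this copy cannot be told apart. Such copies count as separate genes among the 43. The gains included the 7SK copies RN7SKP48, RN7SKP55, RN7SKP160, RN7SKP292 and RN7SKP174.

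Gained windows lay in the final 10% of the gene's span somewhat more often than lost windows, although their median lay earlier. No test was run on position. In genes of at least 1000 bases, the median gained window lay at 61.4% of the gene's span and the median lost window at 66.0%. The final 10% of the span held 24.2% of gained and 16.3% of lost windows. With 1 window per merged region these shares were 25.1% and 18.5%.

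RNA levels of the genes with windows were then set beside their HITS-CLIP signal. SRSF2 RNA stood at 221 and 243 CPM in WT, 222 and 253 CPM in P95H and 284 CPM in the library labelled uninduced, and counts do not separate the construct from the cells' own gene. The 5 RNA-seq libraries held 37414093 to 45005605 counts, and 22 of 25 erythroid, 17 of 20 megakaryocyte and 1 of 5 lymphoid genes were above 1 CPM. Between P95H and WT, the quasi-likelihood test of edgeR found 0 of 22007 genes (0%) at a Benjamini-Hochberg adjusted p under 0.05. Without adjustment 227 genes were under 0.05, and DESeq2 called 0 genes with 100 under 0.05 unadjusted. Both unadjusted counts are below what evenly spread p-values would give. With 2 samples per genotype, the absence of calls does not show that RNA was unchanged. Of the genes tested, 2133 (9.69%) had a HITS-CLIP window. Their RNA was higher than that of all tested genes, with a median of 70.1 against 4.21 CPM.

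NCL and PTMA, the genes with the largest losses, were abundant at the RNA level in both genotypes. The pseudogenes among the leading lost genes had far less RNA. Their mean over the WT and P95H libraries ran from 0.62 CPM at RP11-529H20.3 to 12.4 CPM at RP11-673C5.1. NCL RNA stood at 2528 and 2651 CPM in WT and at 2540 and 2632 CPM in P95H, so the P95H values lay between the WT values. The HITS-CLIP windows of NCL summed to 58119 CPM in WT and 17968 CPM in P95H. PTMA RNA stood at 1906 and 1857 CPM in WT and 1793 and 1761 CPM in P95H, both below the WT values, and neither gene passed the test. The median RNA change on the log2 scale was -0.02 over genes with gained windows only (654 tested), -0.03 over genes with lost windows only (1236 tested) and 0.00 over all tested genes. Across 2037 genes, the RNA change and the ratio of CPM summed over the listed windows had a Spearman correlation of 0.037. Across 2133 genes, mean RNA level and WT CPM summed over the listed windows had one of 0.072. Windows that did not pass the authors' threshold are not in these sums. Genes are not independent replicates, and HITS-CLIP and RNA-seq came from other samples at other times.

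**Figure D5:**
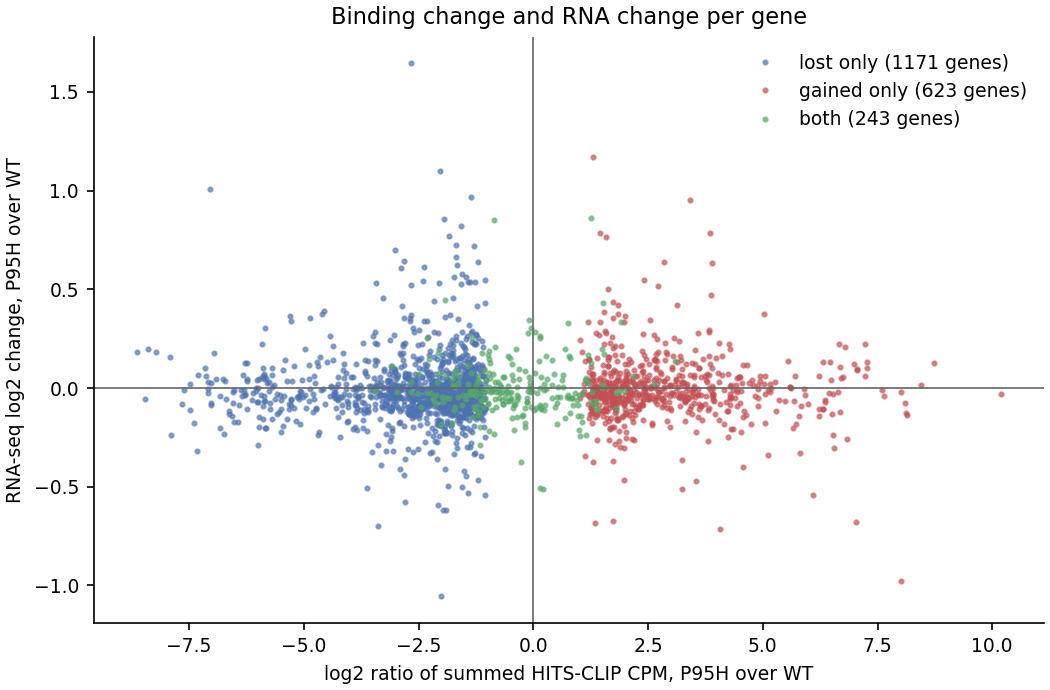
RNA-seq log2 change of P95H over WT (y axis, edgeR) against the log2 ratio of summed HITS-CLIP CPM (x axis) for 2037 genes tested by RNA-seq with binding above 0 in both genotypes. Most genes lie near 0 on the RNA axis at every binding ratio, and the gap in the middle comes from the 2-fold threshold of the binding table.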

How the data were processed

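RNA-seq values are counts per gene, and HITS-CLIP values come from the authors' differential table. Per the file headers that table, as deposited, holds mean CPM per genotype, SEM, a log2 change and an adjusted p-value. How CPM totals, the change and the adjustment were computed is not stated in the labels or the file. Per the submitters' processing notes, STAR 2.5.3a, TopHat2 2.0.14, edgeR and GRCh38.p3 were used, without their roles. Whether counting used strand is not stated.

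Windows with 1 position listed repeatedly were kept once, with the smallest adjusted p, and summed per gene name. Windows of the same strand and direction that shared at least 1 base were merged. Python 3.11.15, pandas 2.3.3, scipy 1.17.1 and matplotlib 3.10.9 were used. Counts were filtered by filterByExpr, scaled by TMM and tested in edgeR 4.0.16 (R 4.3.3, limma 3.58.1) on genotype, two-sided, and checked on simulated data. DESeq2 1.42.0 was an alternative. The uninduced library entered no test.

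Genes named were the 12 with the largest gained and lost sums, up to 4 members of each of 15 lists (412 of 413 entries matched), 5 genes with windows both ways and the 5 windows with the largest rise and fall; others are marked as chosen after their values were seen. The members and lists were chosen with earlier results of these data known. Motifs were searched only in windows inside RefSeq promoter entries, since no genome was used. Some genes that the rule names are not reported here.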

Additional observations from a re-analysis of the deposited data

How the results depend on the processing

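Most windows were lost under each setting tried on them, from 66.2% with overlapping windows merged (2496 lost regions) to 78.0% at an adjusted p of at most 0.01 in the authors' deposited table. At a change of at least 4-fold the share was 76.5% (933 gained, 3033 lost). Settings on equal values, opposite strands, single libraries, SEM and NCL were chosen after seeing the data. With only windows whose difference exceeded both SEM summed, 737 were gained and 1760 lost (70.5%). The lost share of the summed difference was 81.0% with the strongest window of each region and 95.8% without each gene's largest window. It was 90.7% without windows whose SEM require 1 library to hold at least 80%, 85.8% with windows past both SEM and 91.8% without NCL. Genes with net gain and loss numbered 357 and 847 without each gene's largest window, and 481 and 693 with windows past both SEM. The direction of a gene's net CPM turned in these cases. At an adjusted p of at most 0.01 in the authors' deposited table, HERC2P2 was at -5, HERC2P9 at -4.87, NPM1 at 11.28 and RPS6 at 5.51. Without the largest window, GOLGA8A was at 4.49 and NEAT1 at -0.31, and with equal values counted once HERC2P9 was at -3.07. Without windows whose SEM require 1 library to hold at least 80%, MALAT1 was at -121.4, NEAT1 at -1.14 and SRRM2 at 0.94. With windows past both SEM, EEF1A1 was at -0.13, MALAT1 at -115.91, MKI67 at -0.56, NPM1 at 11.28, PRPF4B at 0.6, RPL4 at -0.82, RPS6 at 5.51 and WDR74 at -1.67. Of the 12 leading lost genes 6 and of the gained 4 stayed among the leading 12 under that setting, led by PTMA and RN7SKP48. These changes follow from which windows each setting keeps. In gained windows CCNG was at 36% after merging, and on protein-coding transcripts only GGNG was at 59.2% in lost and 62.9% in gained windows.

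In RNA-seq, a replicate block gave 84 genes (41 higher, 43 lower). The 2 pairs of same-numbered libraries had a correlation of deviations of 0.534, too few to show that the numbers pair the samples. Without a filter on low counts 15 of 38948 genes passed (2 higher, 13 lower), and the cause was not tested. DESeq2 gave 0 genes. Leaving out each library gave 0 to 0 genes, with the lone sample assumed to vary like the other genotype, which says nothing about stability. With 2 libraries per genotype, and binding given only as means, small differences were not detectable.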
